A study of Mus musculus with 151 samples.

Results

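The calcium pumps and exchangers of the mouse cochlea were examined as 10 genes, taken by name from the 55291 genes of the count matrix: the SERCA pumps *Atp2a1*, *Atp2a2* and *Atp2a3*, the plasma membrane calcium pumps *Atp2b1*, *Atp2b2*, *Atp2b3* and *Atp2b4*, and the sodium-calcium exchangers *Slc8a1*, *Slc8a2* and *Slc8a3*. All 10 had a row in the matrix. Their counts were followed in 151 manually picked, Tdtomato+ single cells of C57BL/6 mice in 3 groups: 55 wild-type inner hair cells at postnatal day 14 (P14_WT IHCs), 50 wild-type inner hair cells at postnatal day 30 (P30_WT IHCs), and 46 induced outer hair cells at postnatal day 14 (P14_iOHCs), which arise from inner hair cells after loss of the transcription factor gene *Tbx2*. Both WT groups carried vGlut3-P2A-iCreER/+ and Ai9/+, so that tamoxifen (TMX) given to newborn mice switched on Tdtomato in cells that use the vGlut3 (*Slc17a8*) locus, that is, in IHCs. The P14_iOHCs carried vGlut3-P2A-iCreER/+, Tbx2 flox/- and Ai9/+, with exon 2 of *Tbx2* floxed on the one allele and the other allele deleted in the germ line, and the same TMX treatment. Every group, the WT ones included, therefore held the CreER driver, the reporter and TMX, and the iOHCs were told apart from unconverted cells by their smaller size when picked. The cells of the P14_iOHC group were thus heterozygous for *Tbx2* from conception and lost the second allele where CreER acted.

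Calcium that enters a hair cell through transduction channels at its stereocilia or through voltage-gated channels at its ribbon synapses has to be removed again. SERCA pumps use ATP to move calcium from the cytosol into the endoplasmic reticulum, plasma membrane calcium pumps (PMCAs) use ATP to expel it from the cell, and sodium-calcium exchangers (NCX) expel it by letting sodium in. In the cochlea PMCA2, the product of *Atp2b2*, is known as the pump of the stereocilia and its loss deafens mice, whereas PMCA1, the product of *Atp2b1*, is found in the basolateral membrane of IHCs.

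Depth and identity were checked first. The cells held between 4326416 and 25035444 counts, with a median of 15557333, and fell into a set of 51 cells with at most 10267217 counts and a set of 100 with at least 11814928. The lower set made up 16 of the 55 P14_WT IHCs, 12 of the 46 P14_iOHCs and 23 of the 50 P30_WT IHCs, and values are given within both sets where they bear on a result. In the WT groups the lower set was replicates 1 to 16 at P14 and 1 to 23 at P30. Depth therefore cannot be told apart from anything else that followed this order. *Tbx2*, the targeted gene, had a mean of 260.0 counts per 1000000 counts of the cell (CPM) ± 127 (SD over 55 cells) in P14_WT IHCs, 69.3 ± 87.4 (46 cells) in P14_iOHCs and 193 ± 103.1 (50 cells) in P30_WT IHCs, and it was still detected in 45 of 46 P14_iOHCs, where reads from exons other than the floxed one are counted too. Of 8 general hair cell markers, all passed the filter on counts described later, and 1 of them, the calcium buffer gene *Calb2* (calretinin), differed by at least 2-fold between P14_iOHCs and P14_WT IHCs, being 6.94-fold lower (it was named after its value was seen). The OHC gene *Slc26a5*, which encodes the motor protein prestin, was detected in 46 of 46 P14_iOHCs and in 2 of 55 P14_WT IHCs. 2 libraries stood apart from their label: in P14_iOHC replicates 1 and 44 the IHC genes *Slc17a8*, *Otof*, *Tbx2* and *Slc7a14* all lay within the range of the P14_WT IHCs, with 2307 and 3235 CPM of *Otof*, although *Slc26a5* was read at 799 and 142 CPM. They differed in other OHC genes, with 16575 and 614 CPM of *Ocm* and 390 and 0.280 CPM of *Lbh*. Of the OHC genes *Slc26a5*, *Ikzf2*, *Ocm* and *Lbh*, 0 in replicate 1 and 2 in replicate 44 lay no higher than the highest P14_WT IHC. In 1 further P14_iOHC, 3 of the 4 IHC genes lay within that range. Supporting cell markers were also higher in the P14_iOHCs: of 18 such genes 15 passed the filter, all 15 by at least 2-fold, and the summed level of the 18 ranged from 2587 to 24894 CPM (median 7898) against 653 to 6251 (median 1774) in P14_WT IHCs, with *Prox1* at 0 in both. In 15 of 46 P14_iOHCs the mean log2 level of these markers (the supporting cell score) exceeded that of every P14_WT IHC. Of the other marker lists, 3 of 4 tested glia, 0 of 5 neuron, 2 of 4 fibroblast, 1 of 4 blood, 1 of 2 immune and 2 of 2 muscle genes were at least 2-fold higher in P14_iOHCs. In the same order, 0, 3, 1, 1, 1 and 0 of them were at least 2-fold lower. Over all genes that passed the filter, 18.4% were at least 2-fold higher and 13.2% at least 2-fold lower. The ratios of *Atp2a3*, *Atp2b1*, *Atp2b2*, *Slc8a2* and *Slc24a3* are also given without the 2 libraries and without the 15 cells. For some other values only the 15 cells were left out. Where neither is stated, values of the P14_iOHCs include the 2 libraries and the 15 cells.

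Each library was 1 cell, and the labels did not tie cells to mice or litters. Cells are not replicates of a condition, so no test between groups was possible and none was run. Each group is described by its mean with the SD over cells, by its lowest, median and highest cell, and by the percentage of all cell pairs, with 1 cell from each group, in which the first group was higher. The spread over cells includes cell-to-cell sampling and library preparation, and differences between mice or picking sessions cannot be told apart from differences between groups.

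The level of each gene was compared with that of the others per kilobase of exon (CPM divided by kilobases of exon, RPKM) because the exons of the 10 genes add up to between 3477 bases (*Atp2a1*) and 18807 bases (*Slc8a1*). In P14_WT IHCs the order was headed by *Atp2a3*, which encodes SERCA3, a SERCA pump of many non-muscle cells. It had a mean of 344 RPKM ± 115 (SD, 55 cells). *Atp2b1* came next with 58.6 ± 15.5 RPKM, and the interquartile ranges of the cells did not overlap between these 2 genes, nor between *Atp2b1* and *Atp2a2*. *Atp2a2*, encoding SERCA2, the pump of the heart and of most tissues, had 18.7 ± 13.0 RPKM. The ranges of *Atp2a2* and *Atp2b2* (7.76 ± 5.42 RPKM) overlapped, as did those of *Atp2b2* and *Slc8a1* (3.86 ± 3.63 RPKM) and those of *Slc8a1* and *Slc8a2* (1.478 ± 2.01 RPKM). Overlap here is of the ranges over cells and does not say which gene was higher within a cell. *Slc8a1* encodes NCX1, best known from the heart, and *Slc8a2* encodes NCX2, best known from the brain. The other 4 genes averaged at most 0.495 RPKM.

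**Figure D1:**
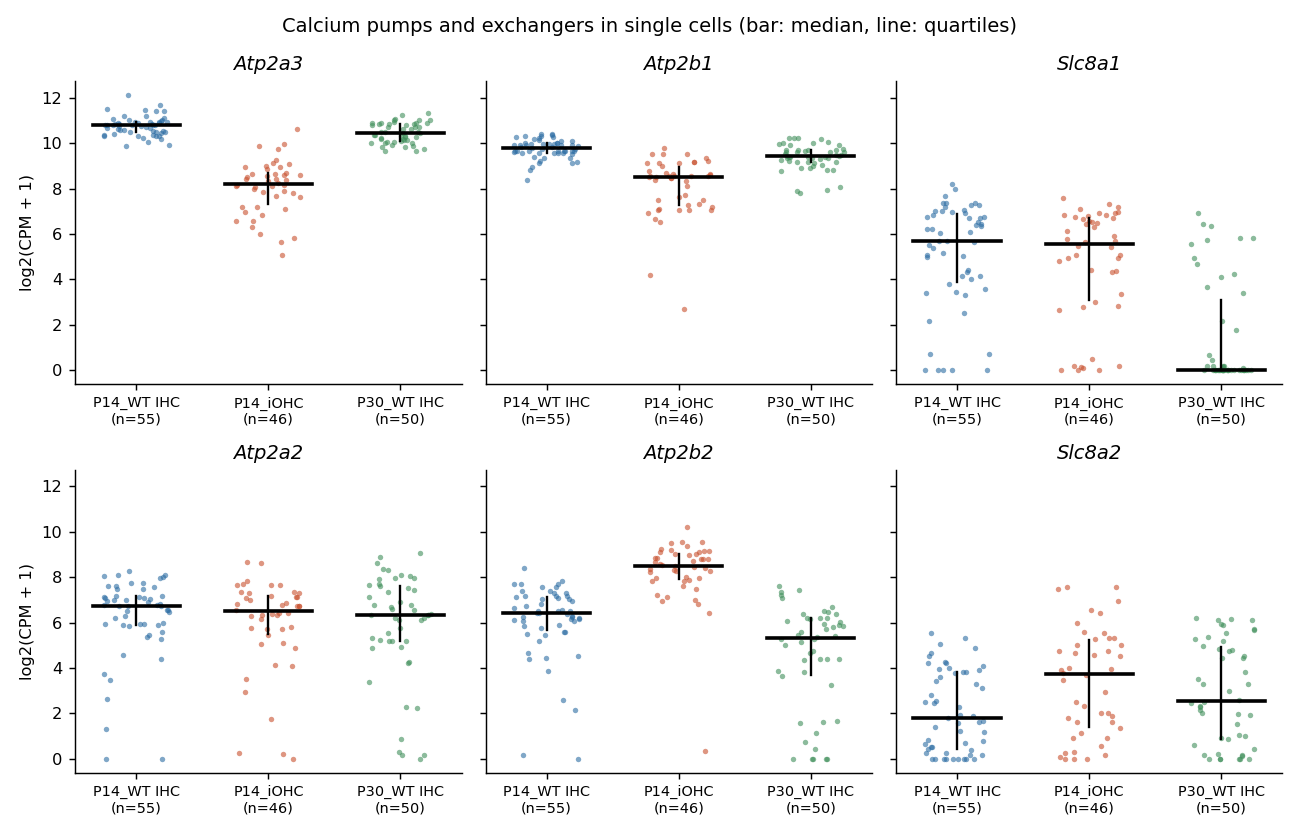
Level of the 6 members that passed the filter on counts, as log2(CPM + 1), in each of the 55 P14_WT IHCs, 46 P14_iOHCs and 50 P30_WT IHCs (points), with the median (bar) and the quartiles (vertical line). *Atp2a3* and *Atp2b1* sit lower and *Atp2b2* higher in P14_iOHCs than in P14_WT IHCs, and *Slc8a1* has a median of 0 in P30_WT IHCs.

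The order was different in P14_iOHCs. *Atp2a3* was still first, at 66.9 ± 54.7 RPKM (46 cells), but its interquartile range overlapped that of the next gene, *Atp2b2*, at 31.2 ± 17.7 RPKM. *Atp2b2* in turn overlapped *Atp2b1* at 23.1 ± 13.9, and *Atp2b1* overlapped *Atp2a2* at 17.4 ± 14.6. The first 4 genes thus formed a run of overlapping neighbours, where in P14_WT IHCs *Atp2a3* and *Atp2b1* each stood clear of the next gene. *Slc8a2*, at 5.89 ± 9.33 RPKM, came before *Slc8a1*, at 3.11 ± 2.77, with overlapping ranges. In P30_WT IHCs *Atp2a3* led at 277 ± 83.5 RPKM (50 cells), followed by *Atp2b1* at 46.7 ± 16.1 and *Atp2a2* at 20.4 ± 20.9, each clear of the next gene. *Atp2b2* (3.89 ± 3.82 RPKM) and *Slc8a2* (3.51 ± 4.40) overlapped, and *Slc8a1* averaged 0.654 ± 1.41 RPKM.

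The comparison of P14_iOHCs with P14_WT IHCs addressed what becomes of IHC and OHC genes once *Tbx2* is lost from IHCs. In P14_iOHCs the reticulum pump gene *Atp2a3* was 5.14-fold lower and the PMCA gene *Atp2b1* 2.54-fold lower, whereas the stereociliary pump gene *Atp2b2* was 4.02-fold higher and the exchanger gene *Slc8a2* 3.98-fold higher. *Atp2a2* and *Slc8a1* differed by less than 2-fold. Genes entered the comparison where no fewer than 10 of the 101 cells held 5 counts or more, which applied to 13673 genes and 6 of the 10 members. *Atp2b2* was the 1 member at least 4-fold higher, where 8.72% of all genes were, and *Atp2a3* the 1 member at least 4-fold lower, where 5.1% of all genes were. At the 2-fold mark, *Atp2b2* and *Slc8a2* were higher (background 18.4%) and *Atp2a3* and *Atp2b1* lower (background 13.2%), so 4 of the 6 were past it in the one or the other direction. The interquartile range of the cells lay wholly above that of the P14_WT IHCs for *Atp2b2* (background 1.58%) and wholly below it for *Atp2a3* and *Atp2b1* (background 1.88%). The median log2 ratio was -0.21 over the 6 members and 0.08 over all 13673 genes.

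*Atp2a3* lies on chromosome 11, at chr11:72961169-72993044 on the plus strand of GRCm38, and its 22 merged exons span 5281 bases. In P14_WT IHCs its lowest cell had 941 CPM, the median cell 1760 and the highest 4477, with a mean of 1816 ± 609.8 (SD, 55 cells). In P14_iOHCs the lowest cell had 32.8 CPM, the median cell 297 and the highest 1599, with a mean of 353 ± 289 (46 cells). 43 of 46 P14_iOHCs lay below every P14_WT IHC, and no P14_iOHC reached the median of the P14_WT IHCs. The P14_iOHC was higher in 0.949% of cell pairs, and the log2 ratio was -2.36. The highest of the P14_iOHCs was replicate 1, one of the 2 libraries with IHC levels of the IHC genes, and the other, replicate 44, had 863 CPM. Without these 2 the highest P14_iOHC had 992 CPM, and *Atp2a3* was 5.79-fold lower, with 42 of 44 cells below every P14_WT IHC. Without the 15 cells of high supporting cell score it was 4.18-fold lower. Within the lower and upper sets of totals the log2 ratio was -2.38 and -2.35.

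*Atp2b1*, at chr10:98914406-99026143 on the plus strand, had 892 ± 235 CPM in P14_WT IHCs, from 328 in the lowest cell through a median of 893 to 1365 in the highest. In P14_iOHCs it had 351 ± 212 CPM, from 5.39 through a median of 363 to 874. 20 of 46 P14_iOHCs lay below every P14_WT IHC and none lay above the median of the P14_WT IHCs. The P14_iOHC was higher in 4.55% of pairs, and the log2 ratio was -1.35. It was -1.53 without the cells of high supporting cell score and -1.39 without replicates 1 and 44. The coefficient of variation over cells was 0.264 in P14_WT IHCs and 0.604 in P14_iOHCs, so the gene was also less even from cell to cell in the latter.

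*Atp2b2* is on chromosome 6, chr6:113743831-114042613 on the minus strand. Its lowest, median and highest P14_WT IHCs had 0, 85.5 and 343 CPM, with a mean of 97.9 ± 68.4. The P14_iOHCs ran from 0.280 CPM through a median of 362 to 1201, with a mean of 393 ± 223. In 25 of 46 P14_iOHCs *Atp2b2* exceeded every P14_WT IHC, and 44 of 46 exceeded the median of the P14_WT IHCs. The P14_iOHC was higher in 92.6% of pairs, with a log2 ratio of 2.01. That value lay at the edge of the 4-fold mark: it was 1.99 without the 1 P14_WT IHC whose total count or number of detected genes was far from the rest of its group, and 1.70 and 2.21 within the lower and upper sets of totals. The lowest P14_iOHC, at 0.280 CPM, was replicate 44. Without replicates 1 and 44 the P14_iOHCs began at 84.0 CPM and the ratio was 4.12-fold, and without the cells of high supporting cell score it was 4.60-fold. Antisense genes that overlap *Atp2b2*, Gm15082 and Gm15083, averaged at most 1.32 CPM in any group.

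The promoters of *Atp2a3* and *Atp2b2* are shown because over all cells these 2 of the 6 tested members differed most between P14_iOHCs and P14_WT IHCs, in opposite directions. *Slc8a2* was close behind, with a log2 ratio of 1.99 against 2.01 for *Atp2b2*, and the order of those 2 depended on the setting. Each line gives the 250 bases before an annotated start (RefSeq, GRCm38.p6), read along the gene, with GC boxes (GGGCGG on either strand, the letters bound by Sp-family factors) in capitals. The *Atp2a3* window is chr11:72960919-72961168 on the plus strand and the *Atp2b2* window, that of the most upstream of 3 annotated starts, is chr6:114042081-114042330 on the minus strand.
Atp2a3: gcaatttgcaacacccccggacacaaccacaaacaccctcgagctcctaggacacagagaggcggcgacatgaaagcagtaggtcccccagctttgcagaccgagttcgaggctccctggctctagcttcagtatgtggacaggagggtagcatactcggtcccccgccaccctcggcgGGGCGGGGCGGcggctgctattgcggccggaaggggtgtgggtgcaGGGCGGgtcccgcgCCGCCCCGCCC
Atp2b2: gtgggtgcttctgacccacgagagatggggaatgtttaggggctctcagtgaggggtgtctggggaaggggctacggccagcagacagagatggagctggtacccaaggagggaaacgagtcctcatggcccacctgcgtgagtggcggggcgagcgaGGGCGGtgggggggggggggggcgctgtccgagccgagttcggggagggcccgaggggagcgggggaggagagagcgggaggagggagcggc
The *Atp2a3* window held 5 GC boxes, at positions -71, -66, -25, -11 and -6 (first base along the gene, counted back from the start), of which the leading pair and the closing pair overlap by 1 base, whereas the *Atp2b2* window held 1, at -92. G and C made up 66.8% of the former and 69.6% of the latter, against a median of 52.4% over 32851 windows, and 32.7% of all windows held a GC box. Of the 10 members 8 had a window (all but *Atp2a2* and *Atp2b3*), 11 windows in all. The letters GGTGTGA, a core of T-box sites, were found on neither strand of these 11 windows, and 3.33% of all windows held them. At that share few or none of 11 windows would hold them, so no conclusion is drawn from their absence. Bases outside these windows were not read. Windows at the other starts of *Atp2b2* had 55.6% and 52% G and C and held 1 and 0 GC boxes, and counts per gene do not say which start was used. The share of all windows with more than 1 GC box was not counted, so no conclusion is drawn from 5 against 1.

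*Slc8a2*, at chr7:16129826-16161063 on the plus strand, was sparse and uneven. In P14_WT IHCs it was detected in 46 of 55 cells, with a median of 2.46 CPM, a highest cell of 45.3 and a mean of 7.78 ± 10.6. In P14_iOHCs it was detected in 43 of 46 cells, with a median of 12.3 CPM, a highest cell of 192 and a mean of 30.97 ± 49.1. The groups overlapped widely: 9 of 46 P14_iOHCs lay above every P14_WT IHC, and the P14_iOHC was higher in 66.4% of pairs. The log2 ratio of 1.99 fell just short of the 4-fold mark. It was past the mark without replicates 1 and 44 (2.05), without the cells of high supporting cell score (2.24) and in the lower set of totals (2.32), and short of it in the upper set (1.86).

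For *Atp2a2* and *Slc8a1* the interquartile ranges of the groups overlapped and pairs were near even. *Atp2a2*, at chr5:122453513-122502225, had 114 ± 78.8 CPM in P14_WT IHCs, with a median of 107 and a highest cell of 310.5, and 106 ± 88.8 CPM in P14_iOHCs, with a median of 89.5 and a highest cell of 403, the P14_iOHC being higher in 45.7% of pairs. Its ratio differed between the sets of totals: in log2 it was -1.08 in the lower set (12 against 16 cells) and 0.25 in the upper set (34 against 39). The gene overlaps 3 provisional transcripts, of which Gm43361 on the opposite strand averaged 95.4 CPM in P14_WT IHCs and 40.3 in P14_iOHCs. *Slc8a1*, at chr17:81373105-81738377, had 72.6 ± 68.2 CPM (median 50.1, highest 290) in P14_WT IHCs and 58.5 ± 52.1 (median 46.7, highest 192) in P14_iOHCs, with the P14_iOHC higher in 45.2% of pairs.

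**Figure D2:**
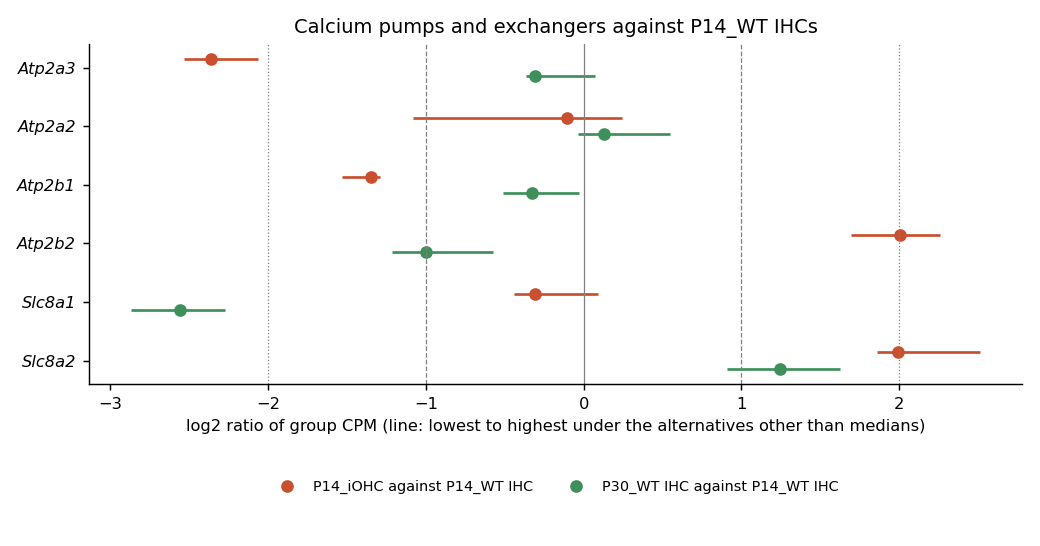
Log2 ratio of group CPM for the 6 members, P14_iOHCs (red) and P30_WT IHCs (green) each against P14_WT IHCs, with a line from the lowest to the highest value under the alternative settings other than medians. Dashed and dotted vertical lines mark 2-fold and 4-fold. *Atp2a3* lies at -2.36 and *Atp2b2* at 2.01 in P14_iOHCs, and *Slc8a1* at -2.56 in P30_WT IHCs. Both comparisons use the same P14_WT IHCs.

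P30_WT IHCs were compared with P14_WT IHCs to see how the same genes stand in older IHCs, which had a summed supporting cell marker level of 744 to 6877 CPM (median 2831). The exchanger gene *Slc8a1* was 5.90-fold lower at P30, and *Slc8a2* was 2.37-fold higher. The pump genes were closer: *Atp2b2* was 2.00-fold lower and *Atp2a3* and *Atp2b1* 1.24-fold and 1.26-fold lower, while *Atp2a2* was 1.09-fold higher. Of 12946 genes that passed the same filter over the 105 cells, 6 were members. *Slc8a1* was the 1 member at least 4-fold lower (background 3.06%), and 0 members were at least 4-fold higher (background 2.26%). At 2-fold, *Slc8a2* was higher (background 8.83%) and *Slc8a1* lower (background 10.4%), with *Atp2b2* just inside the mark over all cells and past it within both sets of totals. Over all settings that use means, the log2 ratio of *Atp2b2* ranged from -1.22 to -0.57, so its place at the mark depended on the setting. The interquartile range of *Slc8a1* lay wholly below that of the P14_WT IHCs (background 0.765%), and that of 0 members lay wholly above (background 0.185%). The median log2 ratio was -0.32 over the 6 members and -0.03 over all genes. By total counts 1143 genes were at least 2-fold higher and 1341 at least 2-fold lower at P30, and with DESeq2 size factors these numbers were 2159 and 852. Both comparisons share the P14_WT IHCs, so their values are given side by side and are not independent.

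*Slc8a1* was detected in 50 of 55 P14_WT IHCs, or 90.9% (exact Clopper-Pearson 95% interval 80.0 to 97.0), and in 23 of 50 P30_WT IHCs, or 46% (31.8 to 60.7). Its P14_iOHC share was 43 of 46, or 93.5% (82.1 to 98.6). These intervals cover counting error only, and the reads, which carry no molecular identifiers, need not be separate molecules. The P30_WT IHCs had a median of 0 CPM, an upper quartile of 8.12, a highest cell of 121 and a mean of 12.3 ± 26.5. P30_WT IHCs above the median of the P14_WT IHCs numbered 6 of 50, and the P30_WT IHC was higher in 15.8% of pairs. The lower value was seen within both sets of totals, with log2 ratios of -2.87 and -2.28.

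*Slc8a2* was detected in 44 of 50 P30_WT IHCs, with a median of 4.89 CPM, a highest cell of 72.3 and a mean of 18.5 ± 23.1. 9 of 50 P30_WT IHCs exceeded every P14_WT IHC, yet the P30_WT IHC was higher in 61.1% of pairs. The log2 ratio was 1.25, or 1.56 in the lower and 0.91 in the upper set of totals.

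*Atp2b2* had a median of 39.6 CPM in P30_WT IHCs, with a lowest cell of 0, a highest of 192 and a mean of 49.1 ± 48.2. It was detected in 45 of 50 P30_WT IHCs, 54 of 55 P14_WT IHCs and 46 of 46 P14_iOHCs. The P30_WT IHC was higher in 26.5% of pairs, and the log2 ratio was -0.997, or -1.09 in the lower and -1.22 in the upper set of totals. *Atp2b2* thus averaged 97.9 CPM in P14_WT IHCs, 49.1 in P30_WT IHCs and 393 in P14_iOHCs.

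*Atp2a3* ran from 799 CPM through a median of 1382 to 2556 in P30_WT IHCs, with a mean of 1463 ± 441. *Atp2b1* ran from 225 through a median of 684 to 1212, with a mean of 710.2 ± 245. The P30_WT IHC was higher in 32.1% of pairs for *Atp2a3* and in 29.4% for *Atp2b1*, and the interquartile ranges overlapped those of the P14_WT IHCs for both genes. The direction for *Atp2a3* depended on the scaling: its log2 ratio was -0.31 by total counts and 0.07 by DESeq2 size factors, which also moved the median of all genes from -0.03 to 0.33. For *Atp2b1* the log2 ratio ranged from -0.51 to -0.03 over the settings that use means. *Atp2a2* was the least even of the 3 in P30_WT IHCs, with 124 ± 127 CPM, a median of 80.3 and a highest cell of 538, and 46.2% of pairs higher at P30.

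The make-up of each family was then read within single cells, which needs no scaling between cells. Each value is the reads per kilobase of a member as a percentage of its family in the same cell. *Atp2a3* supplied 94.4% ± 3.85 (SD, 55 cells) of SERCA reads in P14_WT IHCs, with a lowest cell of 81.7%, and 92.8% ± 6.79 in P30_WT IHCs, with a lowest cell of 69.0%. In P14_iOHCs its share was 73.8% ± 20.2 (46 cells) and ranged from 25.5% to 100%, and *Atp2a2* supplied 25.3% ± 20.5. *Atp2a2* exceeded *Atp2a3* in 5 of 46 P14_iOHCs and in 0 of 55 P14_WT IHCs and 0 of 50 P30_WT IHCs. All 5 cells were in the upper set of totals, and 2 remained among the 31 P14_iOHCs without a high supporting cell score, where the median share of *Atp2a2* was 12.8% against 24.2% in all 46. The summed SERCA level was lower in P14_iOHCs, at 84.8 ± 56.9 RPKM against 363 ± 115 in P14_WT IHCs and 298 ± 86.3 in P30_WT IHCs.

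Among the PMCAs *Atp2b1* and *Atp2b2* supplied nearly all reads, so their shares mirror each other. *Atp2b1* had 87.6% ± 7.83 in P14_WT IHCs and 91.6% ± 8.61 in P30_WT IHCs, and it exceeded *Atp2b2* in each of these 105 cells. In P14_iOHCs the share of *Atp2b1* was 42.6% ± 22.9 and that of *Atp2b2* 57.2% ± 22.9. *Atp2b2* had 11.8% ± 7.53 in P14_WT IHCs and 8.21% ± 8.42 in P30_WT IHCs. *Atp2b2* was the more abundant PMCA gene in 27 of 46 P14_iOHCs per kilobase, and in 24 of 46 without division by length. The highest share of *Atp2b2* in a P14_WT IHC was 31.3%, and the interquartile range of the P14_iOHCs, 43.3% to 77.6%, lay above it. Within the lower and upper sets of totals the mean share of *Atp2b2* in P14_iOHCs was 60.9% and 55.8%, and it was 63.5% without the cells of high supporting cell score. The summed level of the PMCA family differed less than its make-up, with 66.8 ± 16.4 RPKM in P14_WT IHCs, 54.3 ± 19.6 in P14_iOHCs and 50.6 ± 16.2 in P30_WT IHCs.

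**Figure D3:**
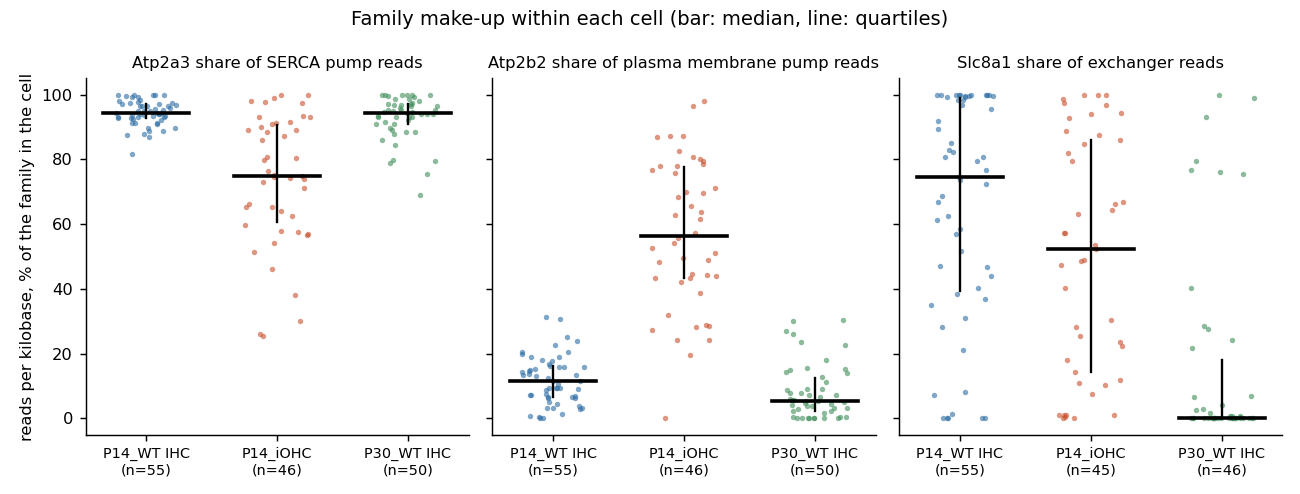
Share of *Atp2a3* in the SERCA reads, of *Atp2b2* in the PMCA reads and of *Slc8a1* in the exchanger reads of each cell, per kilobase of exon, with the median (bar) and quartiles (vertical line). The mean share of *Atp2b2* is 11.8% in P14_WT IHCs, 57.2% in P14_iOHCs and 8.21% in P30_WT IHCs. Cells with no exchanger read are left out of the right panel (46 of 50 P30_WT IHCs and 45 of 46 P14_iOHCs remain).

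The shares of the exchangers had larger SDs than those of the pumps in every group. The share of *Slc8a1* was 64.9% ± 34.7 in P14_WT IHCs, 50.1% ± 36.02 in 45 P14_iOHCs with an exchanger read and 16.7% ± 31.1 in 46 such P30_WT IHCs. In the same order, *Slc8a2* had 33.9% ± 34.9, 49.9% ± 36.01 and 77.9% ± 36.1. Per kilobase, *Slc8a2* exceeded *Slc8a1* in 17 of 55 P14_WT IHCs, 22 of 46 P14_iOHCs and 37 of 50 P30_WT IHCs. Without division by length these numbers were 9, 13 and 33, and the mean share of *Slc8a1* in P14_iOHCs was 65.05%. Cells with very few exchanger reads entered too: P30_WT IHC replicate 11, with 0.106 CPM each of *Slc8a1* and *Slc8a2*, gave *Slc8a2* 78.1%. With reads per kilobase pooled over cells, *Slc8a2* had 25.9%, 63.3% and 66.2% in P14_WT IHCs, P14_iOHCs and P30_WT IHCs. *Slc8a3* had 17.6% of the pooled P30 reads. Pooled without division by length, *Slc8a1* and *Slc8a2* had 40.8% and 46.7% at P30. The family summed to 5.48 ± 4.48 RPKM in P14_WT IHCs, 9.001 ± 10.1 in P14_iOHCs and 4.92 ± 6.52 in P30_WT IHCs, well below the pumps in every group.

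The remaining 4 members had counts in few cells, fell under the filter and are given without a ratio. *Atp2a1*, which encodes SERCA1 of fast skeletal muscle, was detected in 4 of 55 P14_WT IHCs, 5 of 46 P14_iOHCs and 5 of 50 P30_WT IHCs, with highest cells of 49.8, 53.8 and 68.8 CPM. *Atp2b3*, encoding PMCA3, was detected in 5 of 55 P14_WT IHCs (highest 37.1 CPM), in 3 of 50 P30_WT IHCs with 1 count each, and in 0 of 46 P14_iOHCs, which allows a share of cells with a count of up to 6.52% by a limit of 3 cells and of up to 7.71% by the exact interval, and sets no limit on cells that express the gene. *Atp2b4*, encoding PMCA4, was detected in 5, 4 and 3 cells of the P14_WT IHCs, P14_iOHCs and P30_WT IHCs, with highest cells of 62.7, 29.5 and 33.9 CPM. *Slc8a3*, encoding NCX3, was detected in 3, 1 and 4 cells, with highest cells of 29.2, 0.786 and 139.5 CPM. Counts of these genes were concentrated in single cells: 1 P30_WT IHC held 2004 of the 3041 counts of *Slc8a3* in its group, and 1 held 293 of the 296 counts of *Atp2b4*.

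**Figure D4:**
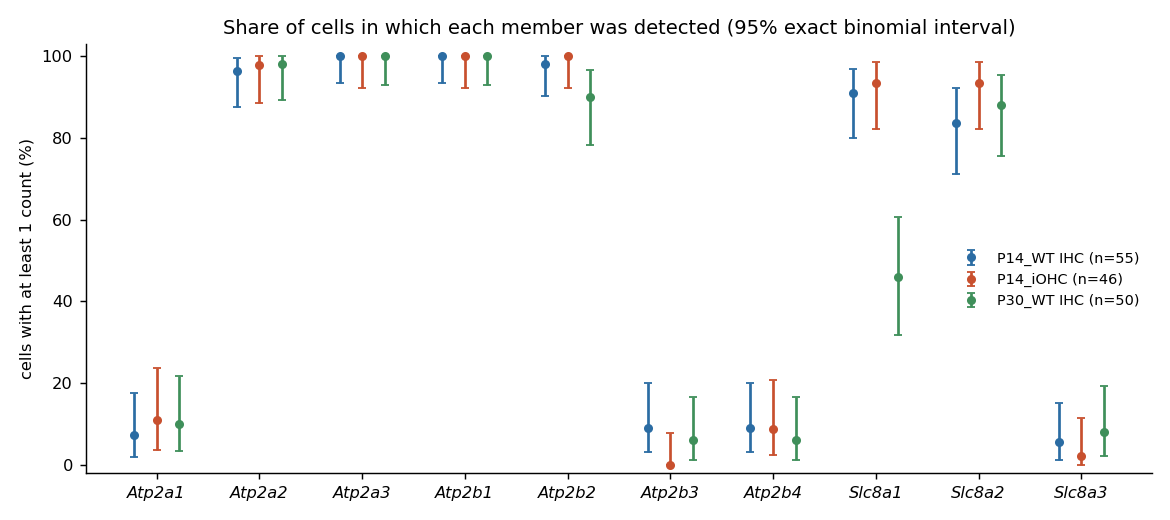
Percentage of cells with at least 1 count of each member, with exact binomial 95% intervals, in 55 P14_WT IHCs, 46 P14_iOHCs and 50 P30_WT IHCs. *Atp2a3* and *Atp2b1* were detected in every cell, *Slc8a1* in 46% of P30_WT IHCs against 90.9% of P14_WT IHCs, and *Atp2a1*, *Atp2b3*, *Atp2b4* and *Slc8a3* in at most 10.9% of any group.

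Variation among cells of 1 group was described by Spearman's rank correlation, with no test, since cells are not replicates and the labels do not tie them to mice. Among 2822 genes that averaged 50 CPM or more in every group, the gene whose pattern was most like that of *Atp2a3* was *Otof*, which encodes otoferlin, the calcium sensor of the IHC ribbon synapse. The correlation was 0.48 over 55 P14_WT IHCs, 0.55 over 46 P14_iOHCs and 0.36 over 50 P30_WT IHCs. *Cgn* and *Rgs11* followed, with mean correlations of 0.46 and 0.40. Within the sets of totals the correlation with *Otof* was 0.59 in both for the P14_iOHCs, 0.19 and 0.46 for the P14_WT IHCs, and 0.56 and 0.61 for the P30_WT IHCs. *Atp2a3* and *Tbx2* had a correlation of 0.37 in P14_WT IHCs, where they differed by set (-0.15 in 16 cells of the lower and 0.48 in 39 of the upper), and of -0.003 in P14_iOHCs.

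*Atp2b2* was most like *Ocm*, which encodes the calcium buffer oncomodulin, abundant in OHCs. The correlation was 0.40 in P14_WT IHCs, 0.47 in P14_iOHCs and 0.49 in P30_WT IHCs, and *Car7* and *Hsd17b7* were next with mean correlations of 0.43 and 0.38. The likeness to *Ocm* differed by set of totals, at 0.06 and 0.51 in P14_WT IHCs, 0.71 and 0.45 in P14_iOHCs and 0.61 and 0.18 in P30_WT IHCs. In P14_iOHCs *Atp2b2* had a correlation of 0.48 with *Slc26a5* and of -0.47 with *Tbx2*. Over all 46 cells, those with more *Tbx2* counts thus tended to have less *Atp2b2*. Replicates 1 and 44, which are included, had 268 and 427 CPM of *Tbx2* and 357 and 0.280 CPM of *Atp2b2*. *Atp2b1* showed the opposite signs over the same P14_iOHCs, with 0.45 for *Tbx2*, -0.48 for *Ocm* and -0.31 for *Atp2b2* itself. Genes most like *Atp2b1* were *Igfbp5*, *Cfl1* and *Srsf5* (mean correlation 0.34, 0.34 and 0.30). For *Slc8a1* they were *Fam50a*, *Zbtb38* and *Bcl7b* (0.31, 0.27 and 0.26), and for *Atp2a2* *Marveld2*, *Hspa2* and *Sf1* (0.28, 0.26 and 0.26), all weak.

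The supporting cell score went with the same genes in P14_iOHCs. Its correlation was -0.49 with *Atp2a3*, -0.48 with *Atp2b2* and 0.40 with *Atp2b1*. In the 15 cells of high score *Atp2a3* had a median of 143 CPM, *Atp2b2* of 259 and *Atp2b1* of 415, against 378, 450.0 and 321 in the other 31. Leaving these cells out made the ratio to P14_WT IHCs smaller for *Atp2a3* and larger for *Atp2b2* and *Atp2b1*. The part of supporting cell RNA in these values was not tested.

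**Figure D5:**
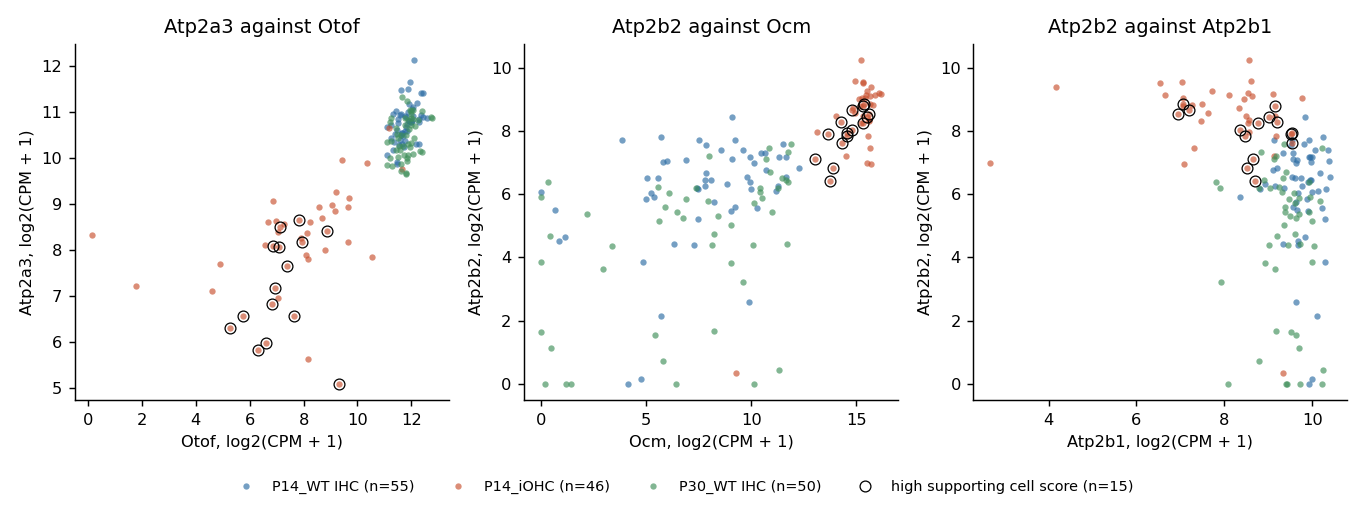
Level, as log2(CPM + 1), of *Atp2a3* against *Otof*, of *Atp2b2* against *Ocm* and of *Atp2b2* against *Atp2b1* in each cell of the 3 groups. Rings mark the 15 P14_iOHCs whose supporting cell score is above that of every P14_WT IHC. The P14_iOHC with the lowest *Atp2b2* (0.280 CPM) and *Otof* at 3235 CPM is replicate 44.

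Other genes of calcium handling were read from lists drawn up for this purpose. Beside the counts of each list, here and in the paragraphs that follow, stand the shares over all genes that passed the filter. In P14_iOHCs 18.4% of all genes were at least 2-fold higher and 13.2% at least 2-fold lower. At P30 these shares were 8.83% and 10.4%. No list was tested against them. Of 10 other calcium transporters 7 passed the filter against P14_WT IHCs in P14_iOHCs, 4 at least 2-fold higher and 1 at least 2-fold lower, with a median log2 ratio of 1.02. The lower one was *Slc24a3*, a potassium-dependent sodium-calcium exchanger, with 371 ± 150.4 CPM in P14_WT IHCs, 34.4 ± 77.0 in P14_iOHCs and 209 ± 106 in P30_WT IHCs. In 43 of 46 P14_iOHCs it lay below every P14_WT IHC, and it was 10.8-fold lower on average, or 17.95-fold lower without replicates 1 and 44 (20.7 CPM in 44 cells) and 7.997-fold lower without the cells of high supporting cell score. It was higher in the P14_iOHC in 2.095% of pairs, and its interquartile range lay wholly below that of the P14_WT IHCs. The Golgi pump gene *Atp2c1* (13.1 CPM in P14_WT IHCs, 36.3 in P14_iOHCs and 31.7 in P30_WT IHCs), the Golgi transporter gene *Tmem165* (63.7, 129 and 37.4) and the reticulum membrane gene *Tmco1* (19.4, 51.98 and 20.97) were among the higher ones in P14_iOHCs, with overlapping interquartile ranges. Without the 15 cells of high supporting cell score the log2 ratios of *Atp2c1* and *Tmco1* went from 1.47 to 0.35 and from 1.42 to 0.60, while that of *Tmem165* was 1.02 with and 1.21 without them. At P30 2 of 7 were at least 2-fold higher, *Atp2c1* and *Slc24a5*, and 0 lower. *Slc24a5* and the other higher gene of P14_iOHCs, *Slc8b1*, averaged under 10 CPM in each group.

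Of 10 partners of the pumps 7 passed the filter, 1 at least 2-fold higher and 3 at least 2-fold lower in P14_iOHCs. Among those lower were *Calm2*, whose product calmodulin activates PMCAs, and *Pln*, whose product phospholamban restrains SERCA2. *Calm2* had 18865 ± 4975 CPM in P14_WT IHCs and 6466 ± 3982 in P14_iOHCs. *Pln* was low, at 11.1 ± 14.7 CPM in the former and 2.36 ± 5.34 in the latter. The higher one, *Fxyd1*, averaged under 10 CPM in each group. *Bsg*, whose product basigin is a partner subunit of PMCAs, had 876 ± 320.4 CPM in P14_WT IHCs and 696 ± 312 in P14_iOHCs. At P30 *Bsg* was 2.08-fold lower, at 422 ± 186 CPM, and was the 1 partner of 7 at least 2-fold lower there, with *Fxyd1* the 1 higher. The log2 ratio of *Bsg* at P30 was -0.48 in the lower and -1.31 in the upper set of totals.

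Genes of calcium release and refill of the reticulum included 11 of 14 that passed the filter in the P14_iOHC comparison, 4 at least 2-fold higher and 1 at least 2-fold lower. *Ryr1*, a ryanodine receptor best known from skeletal muscle, had 99.2 ± 94.4 CPM and was detected in 44 of 46 P14_iOHCs, against 6.70 ± 31.6 CPM and 7 of 55 P14_WT IHCs, and its interquartile range lay wholly above. It was detected in 4 of 50 P30_WT IHCs. The summed level of 7 skeletal muscle markers ranged from 0 to 155 CPM (median 25.9) in P14_iOHCs and from 0 to 82.7 (median 0) in P14_WT IHCs, and its part in the *Ryr1* values was not tested. The inositol trisphosphate receptor genes *Itpr1* and *Itpr2* averaged 12.4 and 24.4 CPM in P14_iOHCs and 0.0498 and 4.78 in P14_WT IHCs, and *Stim2*, a reticulum calcium sensor, 26.995 and 8.20. *Orai2*, a store-operated channel, averaged 13.4 CPM in P14_iOHCs and 28.4 in P14_WT IHCs. At P30 0 of 8 tested were past 2-fold in either direction.

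The mitochondrial uptake genes and those of the sodium-potassium pump, which maintains the sodium gradient on which NCX runs, were read last. Of 7 mitochondrial genes 2 were at least 2-fold higher and 0 lower in P14_iOHCs, *Mcub*, which averaged under 10 CPM, and *Micu2* at 61.3 ± 68.2 against 30.4 ± 39.5 CPM. The log2 ratio of *Micu2*, 1.01, was 0.60 without the cells of high supporting cell score. At P30 1 of the 7 was lower, *Letm1* at 33.9 ± 40.9 against 74.7 ± 78.4. Of 4 tested sodium-potassium pump genes *Atp1b2* was higher in P14_iOHCs (53.9 ± 45.8 against 20.0 ± 31.3 CPM) and *Atp1b1* lower (155 ± 109 against 311 ± 142). At P30 0 of these 4 were past 2-fold.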

How the data were processed

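Manually picked single cells were amplified with Smart-Seq HT and sequenced with paired-end reads. The authors mapped reads with HISAT2 2.1.0 and deposited raw counts per gene from HTSeq 0.10.0 (mm10), with FastQC 0.11.9, Trimmomatic 0.39 and StringTie 1.3.5 also named in the submitters' processing notes. The annotation release, the strand setting and the treatment of reads with several map positions are not given in the sources used here, so reads of overlapping and near-identical genes may be shared.

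From the deposited counts, CPM was computed by dividing by the total of each cell, and RPKM with merged exon lengths of GENCODE M21 (53180 genes had a length). A gene was compared if it had at least 5 counts in at least 10 cells of the 2 groups, and was called at a 4-fold or 2-fold ratio of mean CPM, or with separate interquartile ranges. Groups came from the sample labels. No group comparison was tested, because the labels name no mouse. Members and lists were chosen with earlier results of these data known. Genes outside the members were named if they passed 2-fold in a calcium list with a group mean of at least 10 CPM, or were among the 3 most alike by mean Spearman correlation, unless stated. A listed gene is not reported here. Of 3745 library pairs within groups, 0 were identical, and no doublet caller was run on these picked cells. Python 3.11.15, numpy 2.4.6, pandas 2.3.3, scipy 1.17.1, matplotlib 3.10.9, R 4.3.3, edgeR 4.0.16 (TMM) and DESeq2 1.42.0 (size factors only) were used, and the ratios were tested on simulated data. Alternatives covered scaling, averaging, filters, depth, left-out cells, thinning to 4326416 counts and a pseudocount of 1 CPM.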

Additional observations from a re-analysis of the deposited data

How the results depend on the processing

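No paired analysis was possible because the results come from no test, and replicate numbers name single cells. In P14_iOHCs against P14_WT IHCs the number of members at least 4-fold apart was 2, and it was 1 with totals without mitochondrial genes, without cells over 3 median absolute deviations, and with 1 CPM added, since *Atp2b2* then fell just short (log2 1.998, 1.986 and 1.995). It was 3, with *Slc8a2* added, under TMM, under DESeq2 size factors, by medians, without the cells of high supporting cell score and without replicates 1 and 44, and in the lower set of totals it was 2, *Atp2a3* and *Slc8a2*. With no filter on counts it was 4, and for P30_WT IHCs the numbers at 4-fold and 2-fold were then 3 and 5 in place of 1 and 2, as sparse members entered. In the lower set of totals 3 members had separate interquartile ranges at P30 (*Atp2b1*, *Atp2b2* and *Slc8a1*) in place of 1. By CPM without division by length, 2 of the 6 expressed members kept their place in the order of P14_iOHCs. No result took the opposite direction among those called. Over the settings that use means, the log2 ratio in P14_iOHCs ranged from -2.53 to -2.06 for *Atp2a3* and from -1.53 to -1.29 for *Atp2b1*. It ranged from 1.70 to 2.26 for *Atp2b2* and from 1.86 to 2.51 for *Slc8a2*. At P30 it ranged from -2.87 to -2.28 for *Slc8a1*, from 0.91 to 1.63 for *Slc8a2* and from -1.22 to -0.57 for *Atp2b2*. Leaving out P14_iOHC replicates 1 and 44 was chosen after seeing the data, as was leaving out the cells of high supporting cell score for the family shares.

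Counts over all genes differed by more than 1.5 times under some settings. For P30_WT IHCs, DESeq2 size factors gave 492 genes at least 4-fold higher (292 by totals). Medians over cells gave 1595 genes at least 4-fold lower (698) and 1580 at least 2-fold higher (2514) in P14_iOHCs, and 1685 and 2637 at least 4-fold and 2-fold lower (396 and 1341) at P30. In the order 4-fold higher, 4-fold lower, 2-fold higher and 2-fold lower, no filter gave 5055, 5076, 7903 and 7537 genes in P14_iOHCs and 3647, 8338, 6026 and 10504 at P30, and a filter of 30 cells gave 388, 282, 1136 and 910, and 62, 99, 420 and 595. With 1 CPM added, 794 and 387 genes were at least 4-fold higher and lower in P14_iOHCs, and 101 and 167 at P30. Without the cells of high supporting cell score 608 genes were at least 4-fold higher in P14_iOHCs. Medians, pooled counts and 1 CPM added give no interquartile range, and leaving out P14_iOHCs does not alter the P30 comparison, so these were not run.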
